A study of Rattus norvegicus with 16 samples.

Results

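Complement component 3 (C3), ceruloplasmin (Cp) and the gene with the Ensembl identifier ENSRNOG00000028896 were followed through the whole kidneys of rats with mineralocorticoid excess. These are 3 of the 32623 genes in the deposited tables, and they were picked by identifier because they were high in DOCA over control kidneys, with ENSRNOG00000028896 showing the largest rise. Their difference between DOCA and control is therefore given as a description, with no test. C3 is ENSRNOG00000046834 and Cp is ENSRNOG00000011913. No source used here paired ENSRNOG00000028896 with a symbol, so it is reported by its identifier alone and nothing is said of its function.

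C3 is the protein on which the classical, lectin and alternative routes of complement activation converge, and its cleavage releases an anaphylatoxin and tags surfaces for phagocytosis. Cp is a copper-binding ferroxidase that circulates in plasma and helps load iron onto transferrin. Both are made mainly by the liver and belong to the acute-phase proteins, whose synthesis is raised by interleukin-6, interleukin-1 and related cytokines through STAT3, NF-kB and C/EBP factors. Kidney tubules and infiltrating leukocytes are also known to make C3.

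Bulk RNA-Seq was available for 4 groups of 4 libraries each from kidneys of Sprague-Dawley rats, with tissue labelled as adult whole kidney and an age of 6 weeks. Control rats had a sham operation. All other rats were uninephrectomized and then received weekly deoxycorticosterone acetate (DOCA, a mineralocorticoid precursor) and salt in the drinking water, with daily gavage of vehicle in the DOCA group, finerenone in the DOCA + finerenone group and spironolactone in the DOCA + spironolactone group. Any difference from control therefore reflects surgery, DOCA and salt jointly. Finerenone is a nonsteroidal and spironolactone a steroidal antagonist of the mineralocorticoid receptor, and they were given at different daily doses, so a difference between these groups cannot be assigned to the drug or to its dose. Below, finerenone and spironolactone stand for the DOCA-treated groups that received them. The labels have no entry for time on treatment, and the 6 weeks they give as age may stand for it, since the study describes the bulk libraries by that length of treatment.

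The libraries held 7063158 to 8056929 counts, except for spironolactone replicate 4 with 10932887. A supplementary legend of the study reports the removal of an outlying library each from the DOCA and spironolactone groups and does not name them. The study's tables cover replicates 1 to 3 of both groups. DOCA replicate 4 and spironolactone replicate 4 were accordingly left out of the 14-library fit, and their values are given beside each result. In whole tissue, a change in the share of a cell type and a change in RNA per cell cannot be told apart. None of the 9 kidney and none of the 8 hepatocyte marker genes could be paired with an identifier, so the tissue label could not be checked against its markers. In the leukocyte list 4 of 6 genes were paired (Ptprc, Cd68, Csf1r and Lyz2), and in the fibroblast and endothelium list 3 of 6 (Col1a1, Col3a1 and Pdgfrb).

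The upstream sequences of C3 and Cp are shown because C/EBP and STAT factors are the textbook regulators of acute-phase genes. Both symbols were found in the RefSeq promoter table (GRCr8), a build other than the rn6 assembly of the deposited counts, and ENSRNOG00000028896 was not. Both strands of the 250 bases before the start were searched for a C/EBP motif (TTNNGNAA), a STAT motif (TTCNNNGAA), the NF-kB motif and TATAAA. Capitals mark the C/EBP matches in the 250 bases upstream of C3 (chr9:2201340-2201589, minus strand). They also mark the C/EBP match in a 30-base stretch before the Cp start of the promoter table (chr2:104368587-104368616, plus strand). In a further stretch before that Cp start (chr2:104368631-104368660, plus strand) they mark TATAAA.
C3: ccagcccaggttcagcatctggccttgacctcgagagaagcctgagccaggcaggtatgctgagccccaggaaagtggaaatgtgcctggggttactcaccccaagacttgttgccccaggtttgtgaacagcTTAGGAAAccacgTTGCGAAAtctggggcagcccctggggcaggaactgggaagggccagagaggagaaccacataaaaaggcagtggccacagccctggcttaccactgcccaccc
Cp, C/EBP: attatttactcTTGTGCAAcattaaattgt
Cp, TATA: taaagccttgttTATAAAattgcttgcttc
The C3 matches began 117 and 104 bases before the start, and the second was read on both strands. The Cp match began 72 bases before the start, and its TATAAA, which overlapped a match on the other strand, began 27 bases before it. For Cp this start is the promoter table's, and both stretches lie inside the RefSeq span of the gene (chr2:104368336-104427119), after its first base. Neither gene had a STAT or NF-kB match in these windows. A C/EBP match was present in 37.2% of the 33469 rat promoters in the table, a STAT match in 7.67%, an NF-kB match in 6.33% and TATAAA in 12.9%, so the C/EBP letters alone do not set C3 and Cp apart.

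ENSRNOG00000028896 was close to absent in control kidneys and present in every DOCA kidney without a drug. It had 1 count in control replicate 1 and 0 in the other control libraries, which is below the limit of 3 counts, or 0.425 to 0.485 CPM (counts scaled to a library total of 1e+06 with TMM factors). In DOCA replicates 1 to 3 it stood at 17.1, 20.3 and 32.4 CPM, and in replicate 4 at 84.5 CPM. No DOCA library overlapped the control range, which held for 43.0% of the 14628 genes tested. All DOCA replicates 1 to 3 together had 597 counts against 1 count in the 4 controls, a ratio of scaled counts of 608, with a 95% counting interval of 109 to 24064 that covers counting error only.

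In the finerenone group ENSRNOG00000028896 was low in all 4 kidneys. It was at 0, 5.78, 2.55 and 4.39 CPM in replicates 1 to 4, where the estimated count of 0.42 in replicate 1 was rounded to 0. The highest finerenone library was below the lowest DOCA library by its CPM. Finerenone replicate 1 lay within the control range and the other 3 lay above it.

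In the spironolactone group ENSRNOG00000028896 overlapped its DOCA levels. It stood at 20.0, 77.9, 22.0 and 20.1 CPM in replicates 1 to 4. Replicate 2 was the exception, at a level reached elsewhere only by DOCA replicate 4. The mean was 40.0 ± 32.9 CPM (SD, n = 3) in spironolactone, 23.3 ± 8.08 (n = 3) in DOCA and 3.18 ± 2.50 (n = 4) in finerenone.

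C3 was expressed in every kidney and held part of its elevation under finerenone. It was at 19.0, 21.7, 18.0 and 25.7 CPM in control replicates 1 to 4 and at 64.0, 85.1 and 59.5 CPM in DOCA replicates 1 to 3, with 203 CPM in DOCA replicate 4. In finerenone replicates 1 to 4 it was at 48.4, 49.8, 43.6 and 44.5 CPM. These finerenone values formed the tightest of the C3 groups, above every control and below every DOCA library. In spironolactone replicates 1 to 4 C3 was at 60.9, 84.8, 42.0 and 57.2 CPM, so replicate 3 lay below the finerenone range and the others lay above it. The means were 21.1 ± 3.44 CPM in control (n = 4), 69.5 ± 13.7 in DOCA (n = 3), 46.6 ± 3.00 in finerenone (n = 4) and 62.6 ± 21.5 in spironolactone (SD, n = 3).

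Cp was high with DOCA and spironolactone and low in control and with finerenone. It was at 37.4, 59.1, 59.7 and 63.4 CPM in control replicates 1 to 4 and at 210, 183 and 247 CPM in DOCA replicates 1 to 3, with 321 CPM in DOCA replicate 4. In finerenone replicates 1 to 4 it was at 75.5, 88.5, 96.1 and 95.7 CPM. Every finerenone library was thus above every control and well below every DOCA library. In spironolactone replicates 1 to 4 Cp was at 195, 201, 217 and 146 CPM, above all of finerenone. Replicates 1 to 3 lay within the DOCA values, and replicate 4 lay below the lowest of them, 183 CPM. The means were 54.9 ± 11.8 CPM in control (n = 4), 213 ± 32.0 in DOCA (n = 3), 88.9 ± 9.64 in finerenone (n = 4) and 204 ± 11.2 in spironolactone (SD, n = 3).

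**Figure D1:**
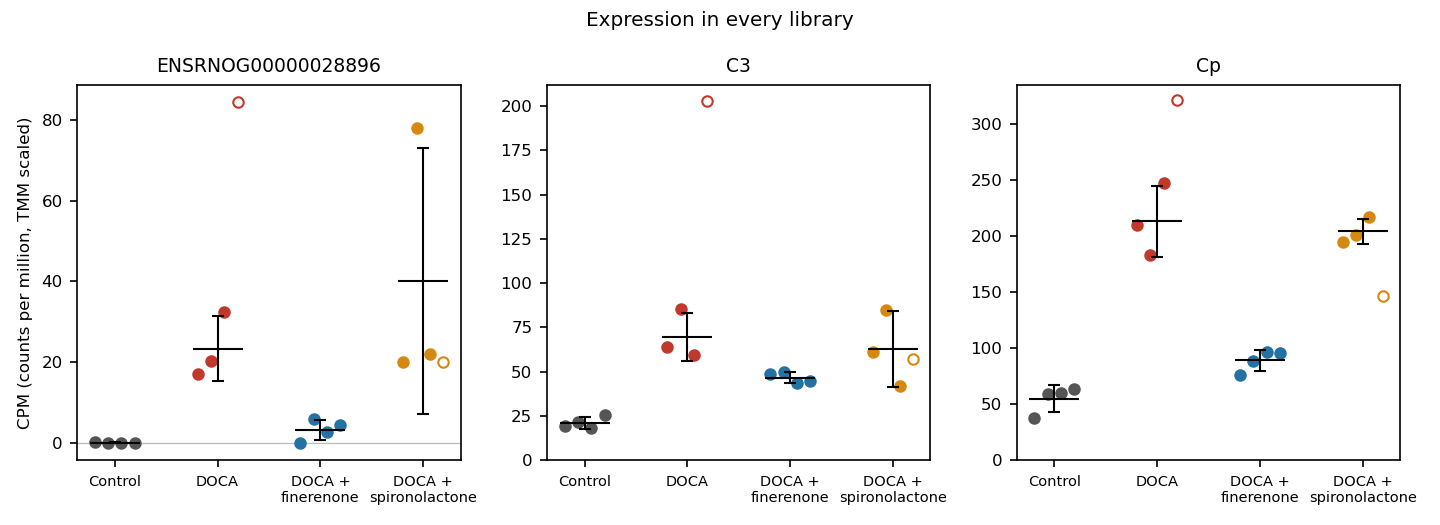
Each point is a library, with CPM on the y axis and the group on the x axis, in a panel per gene with its own scale. Black bars give the mean ± SD of the libraries in the fit, and open circles are the libraries left out of it (DOCA replicate 4 and spironolactone replicate 4). Finerenone libraries lie between all control and all DOCA libraries for C3 (43.6 to 49.8 CPM) and Cp (75.5 to 96.1 CPM). For ENSRNOG00000028896 (0 to 5.78 CPM) they lie below all DOCA libraries, with replicate 1 within the control range.

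The order of levels by group mean was the same for C3 and Cp, control below finerenone below spironolactone below DOCA, while for ENSRNOG00000028896 spironolactone was above DOCA in the libraries of the fit. That last order turned with the libraries, since over all 4 libraries of each group its mean was 38.6 CPM in DOCA and 35.0 in spironolactone. DOCA and spironolactone were neighbours in that order for all 3 genes, and their libraries overlapped for each. Finerenone and spironolactone did not differ by the test for C3, nor finerenone and control for ENSRNOG00000028896. On the log2 scale the difference of DOCA over control, which the choice of genes used, was 8.72 ± 1.35 (SE) for ENSRNOG00000028896, 1.72 ± 0.20 for C3 and 1.96 ± 0.15 for Cp. The first of these rests on a single control count and the fit's handling of zeros. It was 10.47 without control replicate 1 and 9.47 with all 16 libraries.

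The comparison of finerenone with spironolactone used neither of the groups that chose the genes. The choice was still made with earlier results of these data known, and the fit took its spread from all 4 groups. ENSRNOG00000028896 and Cp were lower with finerenone and C3 was not called, that is, 2 of 3 genes, where 6.84% of all genes tested were called lower and 11.4% in either direction. A call was an edgeR quasi-likelihood test with Benjamini-Hochberg adjusted p under 0.05 and a log2 fold change of at least 0.5. Among the 1537 named genes that were higher in DOCA than in control, 41.4% were called lower with finerenone, so genes chosen for a rise in DOCA were often lower here.

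ENSRNOG00000028896 fell by 3.66 ± 0.70 on the log2 scale with finerenone against spironolactone (edgeR adjusted p = 0.00516), a level 12.6-fold lower with a 95% interval of the ratio from 0.0271 to 0.231. Without spironolactone replicate 2 the log2 difference was -2.73 (edgeR adjusted p = 0.0182), still a call but a smaller fold. The libraries of the groups did not overlap, which held for 28.0% of genes. A fit of only these groups gave the same log2 difference with an adjusted p of 0.0558 and missed the threshold. Cp fell by 1.20 ± 0.15 (edgeR adjusted p = 6.17e-05), 2.30-fold, also with no overlap of libraries.

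For C3 the log2 difference between finerenone and spironolactone was -0.43 ± 0.19 (edgeR adjusted p = 0.136), with a 95% interval from -0.83 to -0.02, and the libraries overlapped through spironolactone replicate 3. Without that library the difference was -0.65 and passed the test (edgeR adjusted p = 0.0105), and without spironolactone replicate 2 it was nearest to 0, at -0.14. Scaling by library size alone gave -0.66 (adjusted p = 0.0207), in a setting where the median of all genes was itself shifted by -0.26.

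Against DOCA, finerenone was lower for all 3 genes, where 7.70% of genes were called lower, and the libraries did not overlap for any of the 3, which held for 32.4% of genes. The DOCA libraries of this comparison also served to choose the genes, so a lower value against them is not independent of the choice, and 45.8% of the named genes higher in DOCA were called lower. ENSRNOG00000028896 fell by 2.88 ± 0.71 on the log2 scale (edgeR adjusted p = 0.0156), and without DOCA replicate 3 the fall of 2.56 missed the threshold (adjusted p = 0.058). Cp fell by 1.26 ± 0.15 (edgeR adjusted p = 2.61e-05) and kept its call in each of the 14 fits that left out a library.

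C3 fell by 0.58 ± 0.19 against DOCA (edgeR adjusted p = 0.0416), close to the threshold. This call was lost in 9 of the 14 fits that left out a library, those without control 1 or 2, DOCA 1 or 2, any of the 4 finerenone libraries or spironolactone 1, with log2 differences from -0.68 to -0.41 over all 14. The difference nearest to 0 was without DOCA replicate 2 (adjusted p = 0.19). With the libraries that share the first number of the study's sample code summed, C3 differed by -0.52 (adjusted p = 0.198), while the calls of the other 2 genes held. With all 16 libraries, and so with DOCA replicate 4, the C3 difference was -1.14 (edgeR adjusted p = 0.0243), and a fit of only finerenone and DOCA gave -0.58 (edgeR adjusted p = 0.00564).

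Spironolactone did not differ from DOCA by the test for any of the 3 genes, and no gene among the 14628 was called (0%). By edgeR 578 genes had an unadjusted p under 0.05, and DESeq2 called 11 genes. The direction for ENSRNOG00000028896 was not stable, with a log2 difference of 0.78 in the fit, -0.14 with all 16 libraries and -0.15 without spironolactone replicate 2. The directions for C3 (-0.15) and Cp (-0.06) were not stable either. In fits that left out a library they ran from -0.43 to 0.07 and from -0.16 to 0.06. With all 16 libraries C3 was at -0.75 ± 0.33 and Cp at -0.34 ± 0.18 (SE), and neither was called (edgeR adjusted p = 0.864 for both). The intervals leave room for differences. The ratio of spironolactone to DOCA had a 95% interval of 0.648 to 4.56 for ENSRNOG00000028896, of 0.670 to 1.21 for C3 and of 0.764 to 1.20 for Cp. For Cp the fall of 2.40-fold seen with finerenone lies outside that interval, and for C3 the fall of 1.49-fold (a ratio of 0.670) lies at its lower bound.

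**Figure D2:**
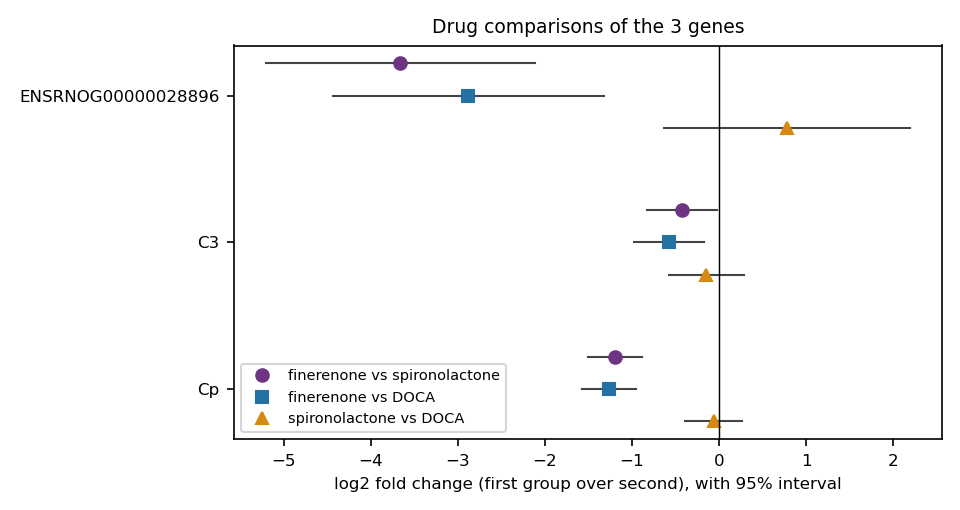
Log2 fold change on the x axis for each gene and drug comparison, fitted on 14 libraries, with horizontal lines for the 95% intervals. The finerenone comparisons lie below 0 for ENSRNOG00000028896 (-3.66 and -2.88) and Cp (-1.20 and -1.26), while all spironolactone against DOCA intervals include 0.

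Relative to control, which shares its libraries with the choice of genes, C3 and Cp stayed higher with finerenone. C3 was 1.14 ± 0.19 higher on the log2 scale (edgeR adjusted p = 0.00317) and Cp 0.70 ± 0.14 (adjusted p = 0.00754), where 3.33% of all genes and 21.1% of the named genes higher in DOCA were called higher. The C3 call was lost with all 16 libraries (adjusted p = 0.103) and the Cp call with summed libraries (adjusted p = 0.105), with values of 1.14 and 0.74. ENSRNOG00000028896 had 89 counts over the finerenone libraries against 1 count in control, a scaled ratio of 81.4 with a counting interval of 14.2 to 3252. Its log2 difference of 5.84 ± 1.81 missed the threshold in edgeR (adjusted p = 0.0907) and passed it in DESeq2 (adjusted p = 0.000757), without finerenone replicate 1 (edgeR adjusted p = 0.0296) and without spironolactone replicate 2 (edgeR adjusted p = 0.0293).

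With spironolactone all 3 genes were called higher than in control. So were 14.7% of all genes and 81.7% of the named genes higher in DOCA. The control libraries also served to choose the genes, so these differences and their tests are not independent of the choice. The log2 differences were 1.57 ± 0.20 for C3 (edgeR adjusted p = 2.57e-05) and 1.90 ± 0.15 for Cp (edgeR adjusted p = 2.05e-07). ENSRNOG00000028896 had 1043 counts in 3 libraries, a scaled ratio to control of 1070 with a counting interval of 192 to 42277 (edgeR adjusted p = 0.000205). Replicate 2 held 700 of these counts, and without it the ratio was 546, with an interval of 97.3 to 21609. All these intervals cover counting error only.

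The share of the DOCA elevation that remained was given for each gene as a description. With the control mean set to 0% and the DOCA mean to 100% on the CPM scale, finerenone libraries stood at 13.5 ± 10.7% for ENSRNOG00000028896, 21.5 ± 6.09% for Cp and 52.6 ± 6.2% for C3 (SD, n = 4). The C3 values ran from 46.4% to 59.3% and the Cp values from 13.0% to 26.0%, with no overlap. With all 16 libraries, where DOCA replicate 4 raises the DOCA mean, these means were 8.14%, 18.4% and 31.1%. The SDs leave out the spread of the control and DOCA means. Spironolactone stood at 94.4 ± 7.04% for Cp, 85.7 ± 44.4% for C3 and 172 ± 141% for ENSRNOG00000028896 (SD, n = 3). The last value rests on replicate 2 and was 90.3% without it. With all 16 libraries the spironolactone means were 72.8% for Cp, 49% for C3 and 90.7% for ENSRNOG00000028896. These other library sets, and the count ratio without spironolactone replicate 2, were added after the data were seen.

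The relation of Cp to C3 can be read within each library on the TPM scale, which corrects for transcript length and where the scaling between libraries has no part. Cp was above C3 in all 16 libraries. The TPM ratio of Cp to C3 was 2.37 to 3.36 in finerenone and 3.53 to 7.72 in spironolactone, so these groups did not overlap, and it was 2.94 to 5.05 in control and 2.33 to 6.17 in DOCA. With all libraries the ratio was 1.66-fold higher with spironolactone than with finerenone (exact two-sided permutation test, p = 0.0286, the smallest p that 70 splits allow with 4 against 4). Adjusted over the 6 pairs of groups it was 0.172, so the difference did not pass the correction. The ratio was chosen for comparison after the values were seen.

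**Figure D3:**
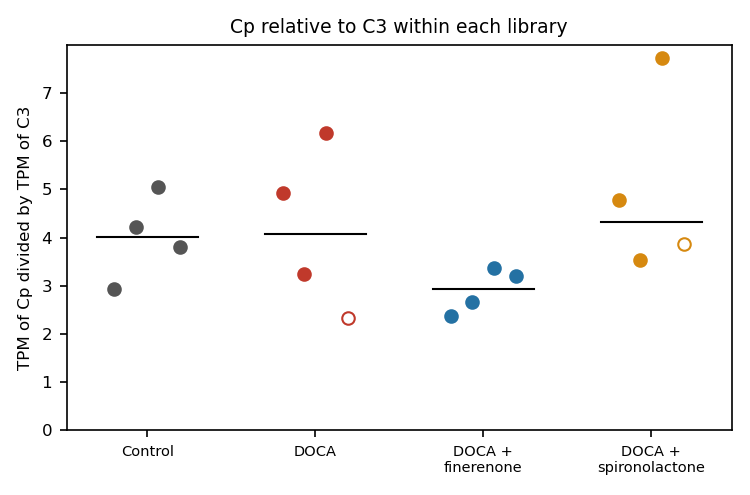
TPM of Cp divided by TPM of C3 (y axis, from 0) in each library by group, with the median of 4 libraries as a black line and left-out libraries as open circles. All finerenone libraries (2.37 to 3.36) lie below all spironolactone libraries (3.53 to 7.72).

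ENSRNOG00000028896 was the least abundant of the 3 genes per length in all but a single library. The C3 to ENSRNOG00000028896 ratio of TPM was 1.61 to 3.66 in DOCA and 0.953 to 2.66 in spironolactone, the lowest value being spironolactone replicate 2, where ENSRNOG00000028896 passed C3. In the 3 finerenone libraries with whole counts of the gene the ratio was 7.54 to 15.1. ENSRNOG00000028896 also had the highest coefficient of variation in each group with a drug or DOCA. Over 4 libraries each it was 81.1% in DOCA, 78.6% in finerenone and 81.7% in spironolactone, where replicate 2 stood apart. For C3 it was 65.8%, 6.44% and 29% in the same groups, and for Cp 25%, 10.8% and 16.1%, so C3 varied less than Cp with finerenone and more with DOCA and spironolactone.

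How the 3 genes varied together was examined from kidney to kidney within the groups, on log2 CPM (prior count 2) minus the group mean, over the 12 DOCA-treated libraries. Over all 16 libraries r was 0.841 for ENSRNOG00000028896 with C3, 0.927 with Cp and 0.859 for C3 with Cp, but those values carry the difference between groups for which the genes were chosen. Within groups Pearson's r was 0.61 for ENSRNOG00000028896 and Cp (permutation p = 0.0218, adjusted over 3 pairs 0.0654), with Spearman's rho of 0.61 (p = 0.0542, adjusted 0.163). For ENSRNOG00000028896 and C3, r was 0.42 (permutation p = 0.0581, adjusted 0.0871) and rho was 0.40 (p = 0.217, adjusted 0.326). For C3 and Cp, r was 0.43 (permutation p = 0.379, adjusted 0.379) and rho was 0.01 (p = 0.977, adjusted 0.977). No pair passed the correction.

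These correlations rested on few kidneys. For ENSRNOG00000028896, finerenone replicate 1 had a rounded count of 0, so its log2 CPM of -1.97 was set by the prior count. DOCA replicate 4 was the highest of its group for all 3 genes, and without it r was 0.21 for ENSRNOG00000028896 and C3, 0.52 for ENSRNOG00000028896 and Cp and -0.34 for C3 and Cp. Leaving out the 2 libraries farthest from the median of the first gene, r was 0.78 for ENSRNOG00000028896 and C3 (without finerenone 1 and 2, permutation p = 0.0476), 0.67 for ENSRNOG00000028896 and Cp (without the same libraries, permutation p = 0.104) and -0.70 for C3 and Cp (without DOCA 4 and spironolactone 2, permutation p = 0.107). The relation of C3 and Cp within groups thus changed sign with the libraries kept. Within libraries that share the first number of the sample code, r was 0.36, 0.53 and 0.19 in the same order of pairs.

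**Figure D4:**
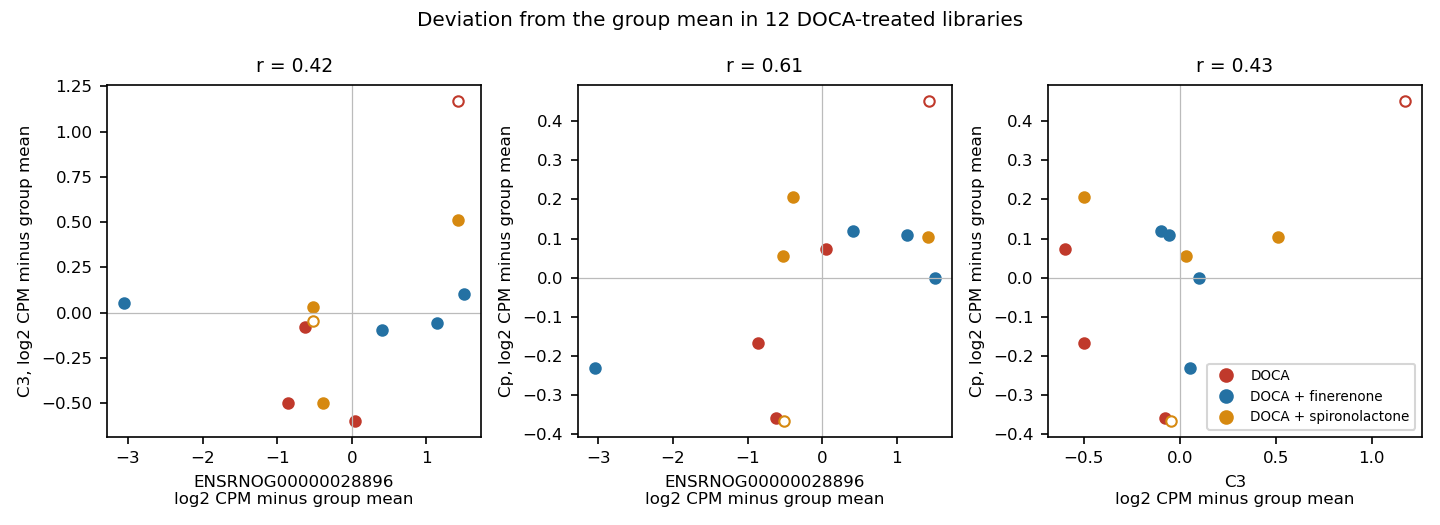
Log2 CPM minus the group mean for each pair of genes in 12 DOCA-treated libraries, with a point per library coloured by group and open circles for the libraries left out of the fit. The titles give Pearson's r (0.42, 0.61 and 0.43), and DOCA replicate 4 is the open circle at the upper right of each panel.

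Among the named genes whose pattern over all 16 libraries was most like that of each member, by Pearson's r of log2 CPM over 12439 genes of sufficient level, ENSRNOG00000028896 was followed by Pla1a (r = 0.978), a phosphatidylserine-specific phospholipase, Ephb6 (r = 0.975), an ephrin receptor, and Myc (r = 0.972), a growth-related transcription factor. The genes most like C3 were Tor3a (r = 0.969), Ppp1r13l (r = 0.963), an inhibitor of p53 and NF-kB family members, and Nfkbiz (r = 0.962), a nuclear IkB family member induced by inflammatory signals. The genes most like Cp were Col5a2 (r = 0.987), a fibrillar collagen chain, Lox (r = 0.98), the collagen cross-linking enzyme lysyl oxidase, and C1s (r = 0.974), a complement protease. These are descriptions over libraries that share the group differences, and 316, 150 and 358 genes had r above 0.9 with ENSRNOG00000028896, C3 and Cp. Cp ranked 144th among the genes most like ENSRNOG00000028896, and C3 ranked 776th.

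The other complement, acute-phase and interleukin-6 family genes that could be named were mostly lower with finerenone than with spironolactone. Of 86 genes on lists of complement, acute-phase and interleukin-6 family genes, 30 could be paired with an identifier, and 22 of these were called lower with finerenone than with spironolactone and 0 higher, with a median log2 difference of -0.85. The pairing used names of genes that the study had found changed between DOCA and control in these samples. Of the 30, 29 were called higher in DOCA than in control and 1 lower, so the lists are not independent evidence of direction. The listed genes without a pairing could not be examined. Beside the 22 of 30, 6.84% of all genes and 41.4% of the named genes higher in DOCA were called lower. The named genes higher in DOCA had a median of -0.54 and all genes tested -0.04. The count was 19 with all 16 libraries, 16 without spironolactone replicate 2 and 7 with libraries of the same first code number summed.

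In the classical and lectin pathway, upstream of C3, 6 of 8 paired genes were lower with finerenone than with spironolactone. The share called lower was 41.4% of the named genes higher in DOCA and 6.84% of all genes. C1qb, C1qc and C1qa, chains of the C1q recognition protein that macrophages make, differed by -0.88 ± 0.18, -0.69 ± 0.14 and -0.62 ± 0.19 on the log2 scale (edgeR adjusted p = 0.00419, 0.00262 and 0.0325). C4a, which supplies the C4 part of the C3 convertase, was at -0.74 ± 0.36 and was not called (edgeR adjusted p = 0.19). C4b is a near-identical copy of C4a, so their reads may be split unevenly between them, and it fell by 1.73 ± 0.35 (edgeR adjusted p = 0.00686).

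Among complement regulators 2 of 3 were lower with finerenone, beside 41.4% of the named genes higher in DOCA and 6.84% of all genes. Clu (clusterin), an inhibitor of the terminal complex and a marker of tubular injury, fell from 1220 ± 449 CPM with spironolactone (SD, n = 3) to 492 ± 124 with finerenone (n = 4), a log2 difference of -1.31 ± 0.32 (edgeR adjusted p = 0.0157). Serping1, the C1 inhibitor, fell by 0.61 ± 0.10 (edgeR adjusted p = 0.000591). Cfi, the protease that cleaves C3b, was at -0.85 ± 0.31 and was not called (adjusted p = 0.0794).

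Both paired genes of the alternative and terminal pathway were lower with finerenone, C7 of the membrane attack complex by 1.33 ± 0.28 (edgeR adjusted p = 0.0073) and Cfp (properdin), which stabilizes the alternative C3 convertase, by 0.95 ± 0.22 (edgeR adjusted p = 0.00576). Of the complement receptors 3 of 4 were lower. Both counts stand beside 41.4% of the named genes higher in DOCA and 6.84% of all genes. Itgb2, the shared beta chain of complement receptors 3 and 4, fell by 0.79 ± 0.12 (edgeR adjusted p = 0.000286) and C5ar1, the C5a receptor, by 0.85 ± 0.26 (edgeR adjusted p = 0.027). C3ar1, the receptor of the C3a fragment, was at -0.86 ± 0.35 and was not called (adjusted p = 0.0991).

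Of the other acute-phase genes, all 4 paired plasma proteins were lower with finerenone. So were 41.4% of the named genes higher in DOCA and 6.84% of all genes. Fga, the fibrinogen alpha chain, fell by 2.23 ± 0.38 (edgeR adjusted p = 0.00274), Timp1, a metalloproteinase inhibitor, by 1.74 ± 0.22 (edgeR adjusted p = 0.000138), Lgals3 (galectin-3) by 1.12 ± 0.22 (edgeR adjusted p = 0.00374) and Lbp, which binds lipopolysaccharide, by 0.90 ± 0.20 (edgeR adjusted p = 0.00409). Only 1 of 3 carriers and inhibitors was called, Lcn2 (lipocalin 2, a tubular injury marker), which fell by 1.77 ± 0.46 (edgeR adjusted p = 0.0232). Tf (transferrin), to which Cp delivers oxidized iron, was at -0.34 ± 0.27 (edgeR adjusted p = 0.421) and Mt1, a metallothionein that binds zinc and copper, at 0 ± 0.15 (adjusted p = 0.996).

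Of the paired genes on the list of interleukin-6 family signalling and control, whose signals drive acute-phase genes, 4 of 6 were lower with finerenone. Beside this count, 41.4% of the named genes higher in DOCA and 6.84% of all genes were called lower. Among the 4 was Il1r1, the interleukin-1 receptor, which is not of the interleukin-6 family. Osmr, the oncostatin M receptor, fell by 1.74 ± 0.24 (edgeR adjusted p = 0.000156), Il6st, the shared gp130 chain, by 0.71 ± 0.22 (edgeR adjusted p = 0.0392) and Stat3 by 0.67 ± 0.09 (edgeR adjusted p = 9.41e-05). Cebpd, a C/EBP factor of the acute-phase response, was at -0.66 ± 0.25 and was not called (adjusted p = 0.0828). Nor was Il6r, the interleukin-6 receptor, at -0.40 ± 0.17 (edgeR adjusted p = 0.113).

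**Figure D5:**
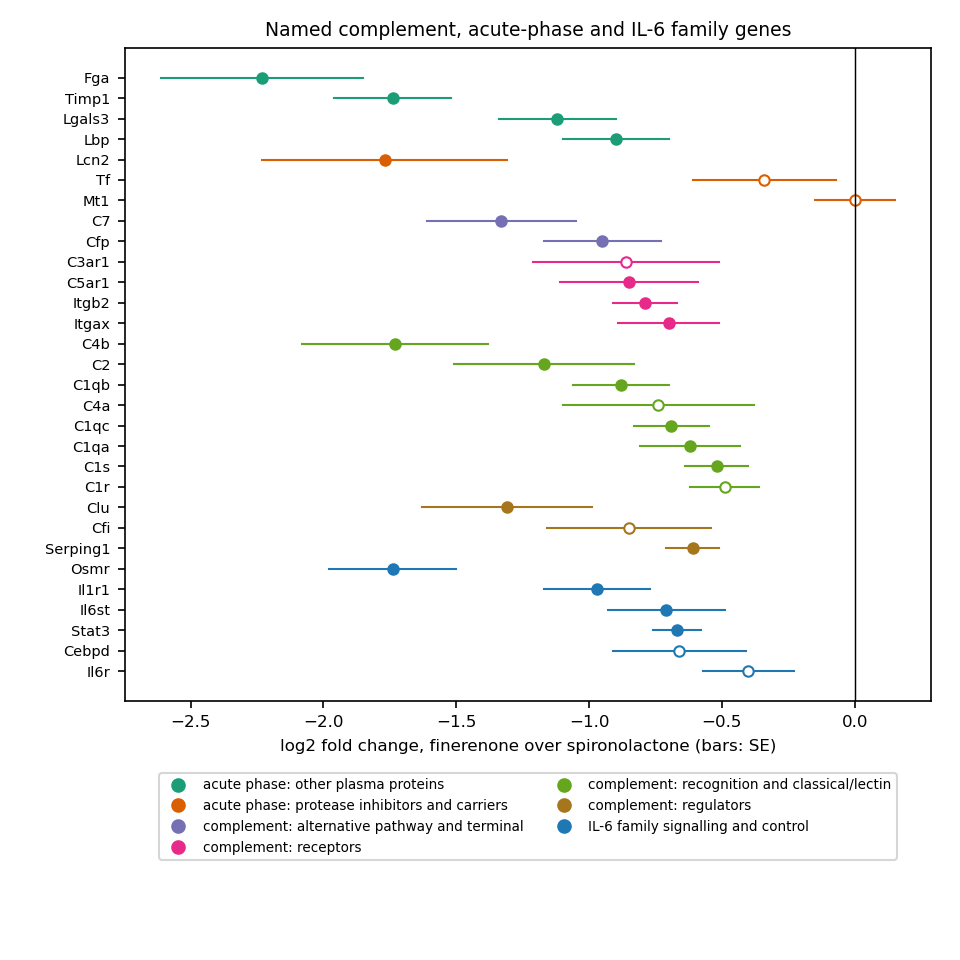
Log2 fold change of finerenone over spironolactone (x axis) for the 30 paired genes of the complement, acute-phase and interleukin-6 family lists, coloured by list, with bars for the SE. Filled points were called, 22 lower and 0 higher.

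Against DOCA 18 of the 30 genes were called lower with finerenone and 0 higher, with a median of -0.72, and with spironolactone none was called in either direction, with a median of 0.07. Of all genes 7.70%, and of the named genes higher in DOCA 45.8%, were called lower with finerenone than with DOCA. The first count was 26 with all 16 libraries and 8 with summed libraries. Against control 14 of the 30 were called higher with finerenone and 28 with spironolactone. Of the named genes higher in DOCA, 21.1% and 81.7% were called higher, and of all genes 3.33% and 14.7%.

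Summed markers of other cells were likewise lower in every control and finerenone library than in any spironolactone or DOCA library. These markers too were paired through names of genes that the study had found changed between DOCA and control. All 4 paired leukocyte and 3 paired fibroblast genes were called higher in DOCA than in control, so control sums below DOCA are not independent of the pairing. The summed level of the 4 paired leukocyte genes was 249 to 382 CPM in control, 443 to 532 in finerenone, 661 to 759 in spironolactone and 585 to 1020 in DOCA. Lyz2 made up most of this sum, with means of 404 CPM in finerenone and 504 in spironolactone. It was not called between these groups (edgeR adjusted p = 0.172), while 3 of the 4 genes were called lower with finerenone. Of the named genes higher in DOCA 41.4% were called lower, and of all genes 6.84%. The sum of the 3 paired fibroblast genes was 186 to 297 CPM in control, 494 to 544 in finerenone, 741 to 1270 in spironolactone and 965 to 1860 in DOCA. The highest DOCA value of both sums was DOCA replicate 4, where all 3 genes were also highest. In the spironolactone group the leukocyte sum did not follow the genes, with 661 CPM in replicate 2, its lowest value, where ENSRNOG00000028896 and C3 were highest, and 759 CPM in replicate 4, its highest, where Cp was lowest. The fibroblast sum was highest in replicate 2 (1270 CPM) and lowest in replicate 4 (741 CPM). The part of these cells in the levels of ENSRNOG00000028896, C3 and Cp was not tested.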

How the data were processed

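PolyA RNA of rat whole kidneys was sequenced in 16 libraries. Per the labels and the study's methods, the authors trimmed reads (Trim Galore 0.4.5), aligned them to rn6/Rnor_6.0 (STAR 2.7.3a) and quantified genes with RSEM; their annotation is not given in the sources used here. The authors deposited estimated counts and TPM for 32623 Ensembl gene IDs. Estimated counts (3.14% of the total not whole) were rounded. Libraries of a group were separate by chi-square per gene (4.52 to 40.1, where sampling gives 1). No source says that libraries come from separate animals beyond their labels, so p-values measure the spread between these libraries.

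The members and lists were chosen with earlier results of these data known. A symbol was given to an ID where a named TPM table of the study held the same TPM, to 2 decimals, in 7 libraries. This matched 1996 of 1997 symbols to exactly 1 ID. A listed gene is not reported here. The RefSeq table holds 0 Ensembl IDs. Genes named in the text were the 3 members, the 3 named genes with the highest r to each member, and paired genes of each list. Each list gave at most its 4 highest in TPM. C4b, Il1r1 and Il6r were added after their values were seen.

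The 14628 genes counted more than 4 times in 3 or more of 14 libraries were tested in a single fit with edgeR 4.0.16 (TMM, robust quasi-likelihood F test, no block) in R 4.3.3. A call was Benjamini-Hochberg adjusted p under 0.05 with a log2 fold change of 0.5 or more in size. Intervals are 95%. CPM were scaled by TMM over 16 libraries. Alternatives used limma 3.58.1 (voom, or log2 TPM with a pseudocount of 1 or 0.1), DESeq2 1.42.0, other scalings, filters and library sets. Correlations and ratios used permutation tests in Python 3.11.15. On simulated data for finerenone against spironolactone (14392 genes), 45 of 59 genes changed 2-fold, 55 of 69 changed 4-fold and 60 of 64 changed 8-fold were recovered, with 5 false calls.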

Additional observations from a re-analysis of the deposited data

Results flagged for a closer look

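In 3 of 12 sets of 4 libraries (3 genes in 4 groups) a library stood far from the others by Dixon's test at the 95% level, where chance gives about 1 in 20 sets, or 0.6. In the control set of ENSRNOG00000028896 every library was below 3 counts, so that any single count would stand apart, and above that limit there were 2 of 11 sets, where chance gives 0.55. ENSRNOG00000028896 was at 0.157 CPM in control replicate 1, from 1 count, with 0 in the other controls. The same gene was at 77.9 CPM in spironolactone replicate 2, where the other 3 were at or below 22.0. Cp was at 37.4 CPM in control replicate 1, below the other 3 at 59.1 to 63.4.

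The libraries outside the fit also held signal above every control. DOCA replicate 4 had 84.5 CPM of ENSRNOG00000028896, 203 CPM of C3 and 321 CPM of Cp, each above the other DOCA libraries. Spironolactone replicate 4 had 20.1, 57.2 and 146 CPM of the same genes, of which Cp was below the other spironolactone libraries.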

How the results depend on the processing

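No log2 fold change of the 3 genes reversed in a called direction under the alternatives run. The uncalled ones in spironolactone against DOCA did change sign. That of ENSRNOG00000028896 (0.78) ran down to -0.15, and those of C3 (-0.15) and Cp (-0.06) ran up to 0.07 and 0.06. With all 16 libraries those of C3 and Cp were -0.75 and -0.34. ENSRNOG00000028896 lost its call against spironolactone in a fit of only the 2 groups (-3.66), and the difference of finerenone from control passed the threshold with DESeq2 (6.09), log2(TPM + 0.1) (2.38) and a fit of only the 2 groups (5.82). C3 against spironolactone passed it with library size alone (-0.66), log2(TPM + 1) with and without a filter (-0.71) and log2(TPM + 0.1) (-0.77), where the median of all genes moved by -0.26 with library size alone and -0.34 with TPM. C3 against DOCA lost its call with no filter (-0.58) and with summed libraries (-0.52), C3 of finerenone against control with all 16 libraries (1.14) and Cp of finerenone against control with summed libraries (0.74). The untested DOCA to control difference of ENSRNOG00000028896 was 7.80 by voom, 2.86 on log2(TPM + 1), 5.91 on log2(TPM + 0.1) and 9.47 with all 16 libraries, that of C3 was 2.06 with library size alone, 2.2 on log2(TPM + 0.1) and 2.29 with all 16 libraries, and that of Cp was 2.38 on log2(TPM + 1) and 2.45 on log2(TPM + 0.1). The correlation of ENSRNOG00000028896 and Cp was 0.56 with a prior count of 0.5 and then passed the correction (adjusted p = 0.0494). The cause of these changes was not tested.

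Leaving out each library in turn gave log2 differences of -4.12 to -2.73 for ENSRNOG00000028896 and -0.65 to -0.14 for C3 against spironolactone, -3.34 to -2.47 for ENSRNOG00000028896 and -0.68 to -0.41 for C3 against DOCA, 5.39 to 7.59 for ENSRNOG00000028896 of finerenone against control and 8.39 to 10.47 of DOCA against control, and r of 0.52 to 0.68 for ENSRNOG00000028896 and Cp (0.68, adjusted p = 0.035, without spironolactone replicate 3).

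Counts of called genes moved by over 1.5 times with scaling. For finerenone against spironolactone 1672 became 2640 with library size alone, 4065 on log2(TPM + 1), 3827 on that scale with no filter, 4371 on log2(TPM + 0.1), 684 with summed libraries and 1053 without spironolactone replicate 2, and the share called lower went from 59.8% to 90.1% with library size alone. For finerenone against DOCA 2011 became 3290, 4321, 4082, 4555 and 1180 in the same order of settings, with 56% and 89.1% called lower. For finerenone against control 612 became 407 with all 16 libraries, 173 with summed libraries and 349 to 847 without a library. On log2(TPM + 1), on that scale with no filter and on log2(TPM + 0.1), spironolactone against control went from 3604 to 5898, 5790 and 6407 and DOCA against control from 3902 to 6098, 5966 and 6642. Spironolactone against DOCA went from 0 to 11 with DESeq2, 1 on log2(TPM + 1), 3 on that scale with no filter and at most 2 without a library.

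Added after the data were seen, the 18 list genes called lower with finerenone than with DOCA became 28 with library size alone, 29 on each TPM scale and 8 with summed libraries, and the 22 against spironolactone became 7 with summed libraries.

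Replicate numbers did not pair the samples. Deviations of same-numbered libraries of different groups correlated from -0.0747 to 0.142 (19 pairs), those of other numbers from -0.174 to 0.154, and 3 of 14 libraries correlated best with their own number. With the replicate block the counts were 1614, 1959, 0, 696, 3565 and 3842 in the order finerenone against spironolactone and DOCA, spironolactone against DOCA, finerenone and spironolactone against control and DOCA against control, and no call of the 3 genes changed. The first sample code number occurs in a single group each, so a batch it may mark and the group cannot be told apart. At this depth a control level of ENSRNOG00000028896 below 0.425 CPM could not be measured.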
